A study of Mus musculus with 24 samples.

Results

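Small leucine-rich proteoglycans (SLRPs) are a family of 10 genes here, chosen by name from the 39017 genes of the deposited count table: Dcn, Bgn, Aspn, Fmod, Lum, Prelp, Kera, Omd, Ogn and Podn. The list was drawn up with earlier results of these libraries known, and which values guided it is not recorded, so every level and fold change of a member is given below as a description without a p-value. RNA was sequenced from about 50 mg of dorsal skin of female C3H/HeJ mice, which were about 30 weeks old at termination, with 6 libraries in each of 4 groups. The 8w off Tx mice had graft-induced alopecia areata (AA), received Cmpd A, a selective JAK1 inhibitor, in the food at 100 mg/kg daily for 4 weeks, and were sampled 8 weeks after it was stopped. The Systemic JAK1i libraries came from skin biopsies of mice with AA at the end of the same 4 weeks of treatment. AA mice carried the same graft-induced disease without the compound, and Healthy mice had neither disease nor compound; both were followed for 12 weeks. The study took the Systemic JAK1i and 8w off Tx samples from the same mice, but the labels do not say which samples share a mouse, and the names of the AA libraries mention a vehicle while their treatment label says none. Systemic JAK1i skin was taken at week 4 from mice that lived on, and the skin of the other 3 groups at week 12. Treatment therefore cannot be told apart from time of sampling, age at sampling or sampling before termination.

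SLRPs are secreted proteins with a core of leucine-rich repeats, which most of them use to bind collagen fibrils in the extracellular matrix, where they control fibril thickness and spacing. In skin they are made mainly by fibroblasts, and loss of decorin gives mice fragile skin with irregular collagen fibrils. Class I (Dcn, Bgn, Aspn) holds the chondroitin or dermatan sulfate proteoglycans decorin and biglycan and the related asporin, class II (Fmod, Lum, Prelp, Kera, Omd) mostly keratan sulfate proteins, class III Ogn (osteoglycin) and class V Podn (podocan).

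Several members lie beside each other in the genome (GRCm38). On chromosome 10, Dcn (97479609-97518143), Lum (97565128-97572703) and Kera (97606879-97613692) follow each other on the plus strand, with 47.0 kb between Dcn and Lum and 34.2 kb between Lum and Kera, and Epyc, which encodes the related epiphycan, comes next. On chromosome 13, Ecm2 (49504810-49532789), which encodes a relative outside the list, is followed by Aspn (49544443-49567565), Omd (49582462-49592822) and Ogn (49608046-49624501) on the plus strand, with gaps of 11.7, 14.9 and 15.2 kb. Prelp (133910304-133921414, minus strand) and Fmod (134037254-134048277, plus strand) are 116 kb apart on chromosome 1. Podn (108014791-108096445, minus strand) is on chromosome 4 and Bgn (73483602-73495933, plus strand) on chromosome X. Cenpp, a centromere protein gene read from the opposite strand, spans Aspn, Omd, Ogn and Ecm2 and shares 7 exon bases with Aspn, and Prelp shares 350 of its 3615 exon bases with the antisense transcript Gm15851. The library kit kept the strand, but whether the counting used it is not given in the sources used here. Reads of these pairs may therefore not be told apart. Cenpp averaged 6.37 to 7.91 CPM (counts scaled to a common library size) in the 4 groups and was called different in none of the 6 comparisons between groups, and Gm15851 averaged at most 0.333 CPM.

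Promoters of 3 members are shown because Fmod and Aspn had the largest fold changes between AA and Healthy skin while Bgn was not called by edgeR in any comparison. The sequences are from RefSeq (GRCm38.p6), run from 250 bases before to 50 bases after the annotated start and are written 5′ to 3′, with CG dinucleotides in capitals.
Fmod, chr1:134037004-134037303, plus strand: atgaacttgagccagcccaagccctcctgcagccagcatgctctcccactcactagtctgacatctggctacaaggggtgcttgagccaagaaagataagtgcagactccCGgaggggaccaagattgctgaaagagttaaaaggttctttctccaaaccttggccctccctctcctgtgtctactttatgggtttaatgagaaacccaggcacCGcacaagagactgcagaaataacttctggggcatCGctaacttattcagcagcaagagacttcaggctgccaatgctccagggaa
Aspn, chr13:49544193-49544492, plus strand: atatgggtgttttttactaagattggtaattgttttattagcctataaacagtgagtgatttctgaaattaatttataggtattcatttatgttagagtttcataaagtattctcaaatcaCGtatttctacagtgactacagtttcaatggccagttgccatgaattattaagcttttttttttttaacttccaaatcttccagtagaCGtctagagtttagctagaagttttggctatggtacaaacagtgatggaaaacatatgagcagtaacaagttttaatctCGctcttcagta
Bgn, chrX:73483351-73483650, plus strand: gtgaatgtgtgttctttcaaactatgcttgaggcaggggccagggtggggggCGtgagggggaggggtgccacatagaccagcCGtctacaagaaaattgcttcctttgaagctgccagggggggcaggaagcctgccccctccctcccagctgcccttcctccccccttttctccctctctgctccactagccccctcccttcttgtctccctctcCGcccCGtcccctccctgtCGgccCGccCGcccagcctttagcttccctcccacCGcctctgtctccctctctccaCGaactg
The Bgn window is 63.7% G and C with 9 CG, the Fmod window 51.0% with 3 CG and the Aspn window 31.0% with 3 CG, beside medians of 52.7% and 7 CG over 32851 promoters of this length. RefSeq promoters matched 8 of the 10 members, without Dcn and Lum. The letters TTCNNNGAA, the pattern bound by STAT proteins downstream of JAK1, were searched on both strands and were in none of the windows of these 8 members, against 8.30% of all promoters, and TGANTCA, the AP-1 pattern, was in none either, against 7.81%. TATAAA was in the Aspn and Ogn windows and in 13.6% of all promoters; in Aspn it began 207 bases before the start. These are letters in a short window and say nothing of binding.

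Summed counts per library were 3444193 to 5766105 for 8w off Tx, 5559273 to 11233020 for Systemic JAK1i, 3859132 to 8472874 for AA and 3649611 to 6407908 for Healthy. Levels are given as CPM with TMM scaling (a factor per library that removes overall shifts in composition), and levels of different genes are compared only as TPM, which takes transcript length into account. The 7 keratinocyte markers summed to 7380 to 17200 CPM in every library, as fits the label of skin. Library B of the Healthy group stood apart, with a sum of 431 CPM over the 10 members against 1130 to 1630 CPM in the other 5 Healthy libraries, and a keratinocyte marker sum of 17200 CPM against 7500 to 10100 CPM. Libraries A and E of the 8w off Tx group had little signal of hair follicles in the growth phase (anagen; 8 markers, 185 and 54.6 CPM against 6180 to 14500 CPM in the other 4), and libraries A and E of the Healthy group little skeletal muscle signal (10 markers, 362 and 302 CPM against 3950 to 21900 CPM). For named genes, calls that change without these libraries are given with both values.

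**Figure D1:**
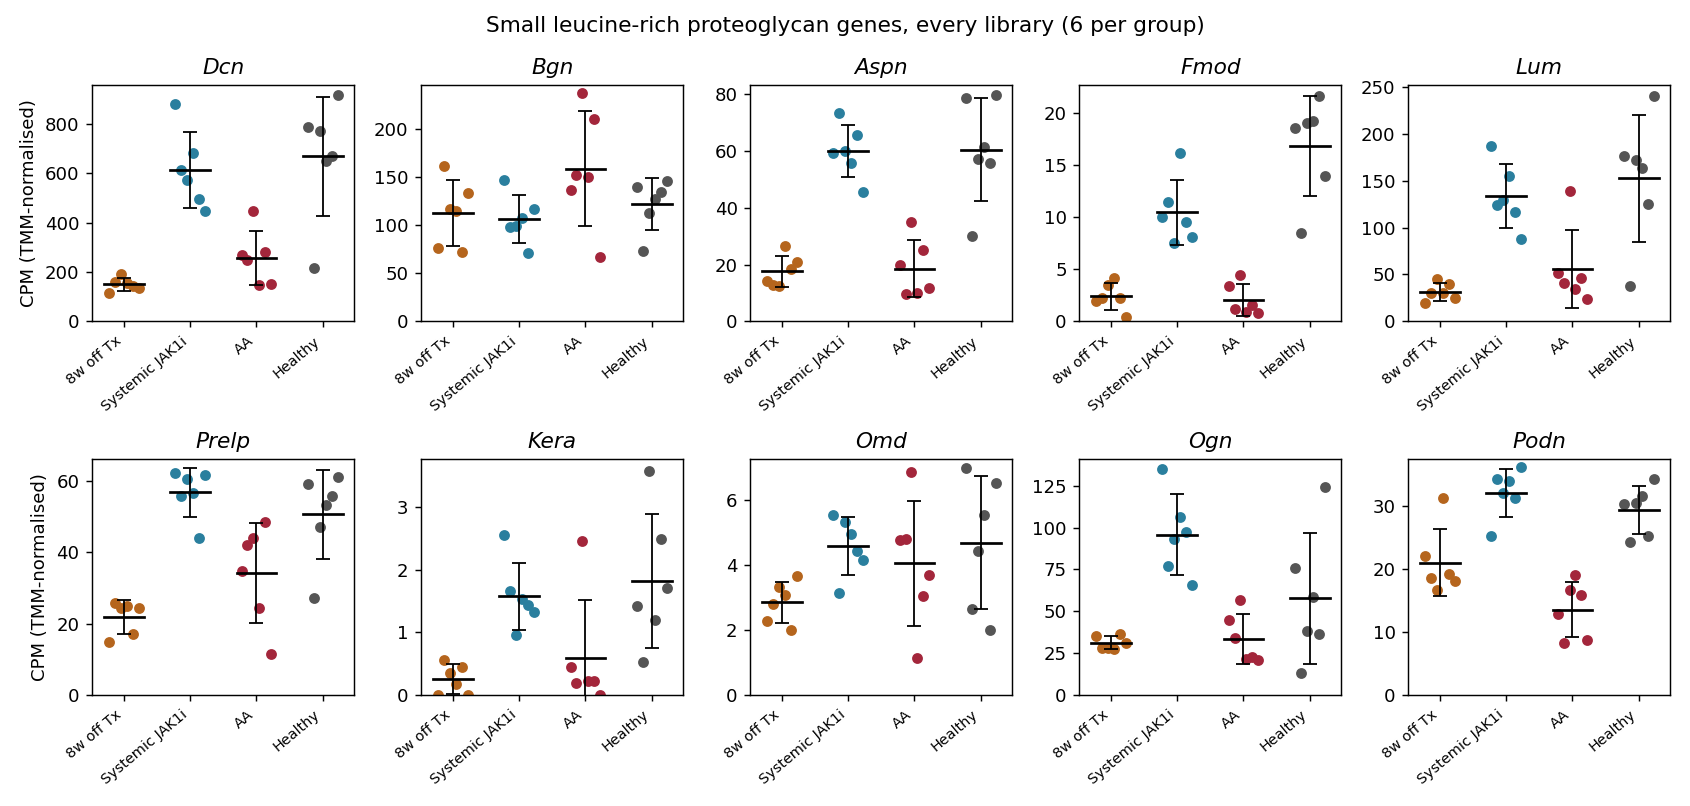
TMM-normalised CPM of each member in every library (points), with the group mean (bar) and SD (whisker), n = 6 per group and a linear axis from 0 in each panel. For Dcn, Aspn, Fmod and Lum most AA and 8w off Tx libraries sit low and most Systemic JAK1i and Healthy libraries high. Healthy library B falls within the AA range for Dcn, Aspn and Lum, and AA library C is high for Lum (139 CPM). The 4 groups overlap for Bgn and Omd.

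Decorin dominated the family. In Healthy skin Dcn made up 63.6% of the summed TPM of the 10 members, followed by Lum (12.5%), Bgn (9.95%), Aspn (4.21%), Ogn (3.69%), Prelp (2.43%), Podn (2.05%), Fmod (0.862%), Omd (0.501%) and Kera (0.164%). On the TPM scale this was 180 ± 74.4 for Dcn, 35.4 ± 16.7 for Lum, 28.2 ± 9.22 for Bgn, 11.9 ± 4.37 for Aspn and 10.5 ± 7.55 for Ogn (SD, n = 6). Neighbours in this order, Lum and Bgn or Aspn and Ogn, lay within each other's spread. Systemic JAK1i skin had a like make-up, with 61.6% Dcn and 9.29% Bgn. In AA skin the share was 50.8% for Dcn and 25.8% for Bgn, and in 8w off Tx skin 43.6% for Dcn and 28% for Bgn.

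The first comparison asked how skin with alopecia areata differed from healthy skin. In AA skin Fmod, Aspn, Lum, Dcn and Podn were lower than in Healthy skin, by 7.87-fold for Fmod and 2.17- to 3.26-fold for the others. Of the 9 members with enough counts to test, 5 were called lower and 0 higher at an edgeR adjusted p under 0.05 over all 16248 genes, against 19.3% of all genes called lower and 20.9% called higher. Because this contrast may have guided the choice of the list, nothing is read from that count. Median log2 fold change was -1.12 over the 9 members and 0 over all genes. Fewer fibroblasts and less RNA per fibroblast cannot be told apart in whole skin.

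In class I, Dcn, which encodes decorin, ranged over 149, 260 and 446 CPM (lowest, median and highest library) in AA skin, against 215, 721 and 919 CPM in Healthy skin. Its groups met only through Healthy library B, since the highest AA value was below the other 5 Healthy values. The log2 fold change was -1.38 ± 0.27 (SE), and -1.57 without that library. Aspn, which encodes asporin, a collagen-binding protein that also binds TGF-beta, had 9.75, 15.9 and 35.0 CPM in AA and 30.2, 59.2 and 79.7 CPM in Healthy skin (log2 fold change -1.70 ± 0.27), and 5 of the 6 AA libraries lay below every Healthy one. Bgn, which encodes biglycan, the closest relative of decorin, went the other way. It had 66.6, 151 and 237 CPM in AA and 72.6, 130 and 146 CPM in Healthy skin, a log2 fold change of 0.38 with a 95% interval of -0.12 to 0.88, and was not called. In 4 of the 6 AA libraries it exceeded every Healthy library, and in 1 it was below all of them.

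In class II the change was steepest in Fmod. Fibromodulin, its product, binds type I collagen and takes part in fibril growth and crosslinking. Its values were 0.793, 1.33 and 4.41 CPM in AA skin, against 8.43, 18.8 and 21.6 CPM in Healthy skin (log2 fold change -2.98 ± 0.38). The groups did not overlap, and the counts behind them were 3 to 30 per AA library and 48 to 130 per Healthy library. Fmod and Podn were the only 2 of the 9 members whose AA libraries all lay below the Healthy ones, against 6.13% of all genes. Lum, which encodes lumican, a regulator of fibril thickness, had 23.5, 43.6 and 139 CPM in AA and 37.8, 168 and 241 CPM in Healthy skin (log2 fold change -1.45 ± 0.36). AA library C, at 139 CPM, stood above the other 5, which reached at most 51.8 CPM, and without it the log2 fold change was -1.95. For Prelp, whose product anchors basement membranes to connective tissue, the values were 11.6, 38.3 and 48.5 CPM in AA and 27.1, 54.5 and 61.0 CPM in Healthy skin (log2 fold change -0.56 ± 0.23, not called). Prelp was called lower in 7 of 25 alternatives, DESeq2 and limma-voom with quality weights among them. Omd, the gene of osteomodulin, known from bone and teeth, had 1.15, 4.23 and 6.85 CPM in AA and 1.99, 4.98 and 6.97 CPM in Healthy skin (-0.22 ± 0.30, not called).

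Kera, which encodes keratocan of the cornea, was near the limit of detection with 17 counts over the 6 AA libraries and 60 over the 6 Healthy ones, and was not tested. Of the AA counts, 10 came from library C alone. Library F of the AA group had 0 counts, which allows up to 0.793 CPM at a floor of 3 counts. In class III, Ogn, which encodes osteoglycin (mimecan), had 21.2, 28.4 and 56.5 CPM in AA and 13.2, 48.4 and 124 CPM in Healthy skin (-0.78 ± 0.34, not called). Healthy libraries spanned the whole AA range for this gene. Without Healthy library B, Ogn (-0.99) and Prelp (-0.69) were also called lower, which made 7 members in place of 5, and the same 2 genes joined them without AA library C. Podn of class V, which encodes podocan, a protein that restrains smooth muscle cell growth, had 8.22, 14.3 and 19 CPM in AA and 24.2, 30.4 and 34.3 CPM in Healthy skin (-1.12 ± 0.18), with no overlap.

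**Figure D2:**
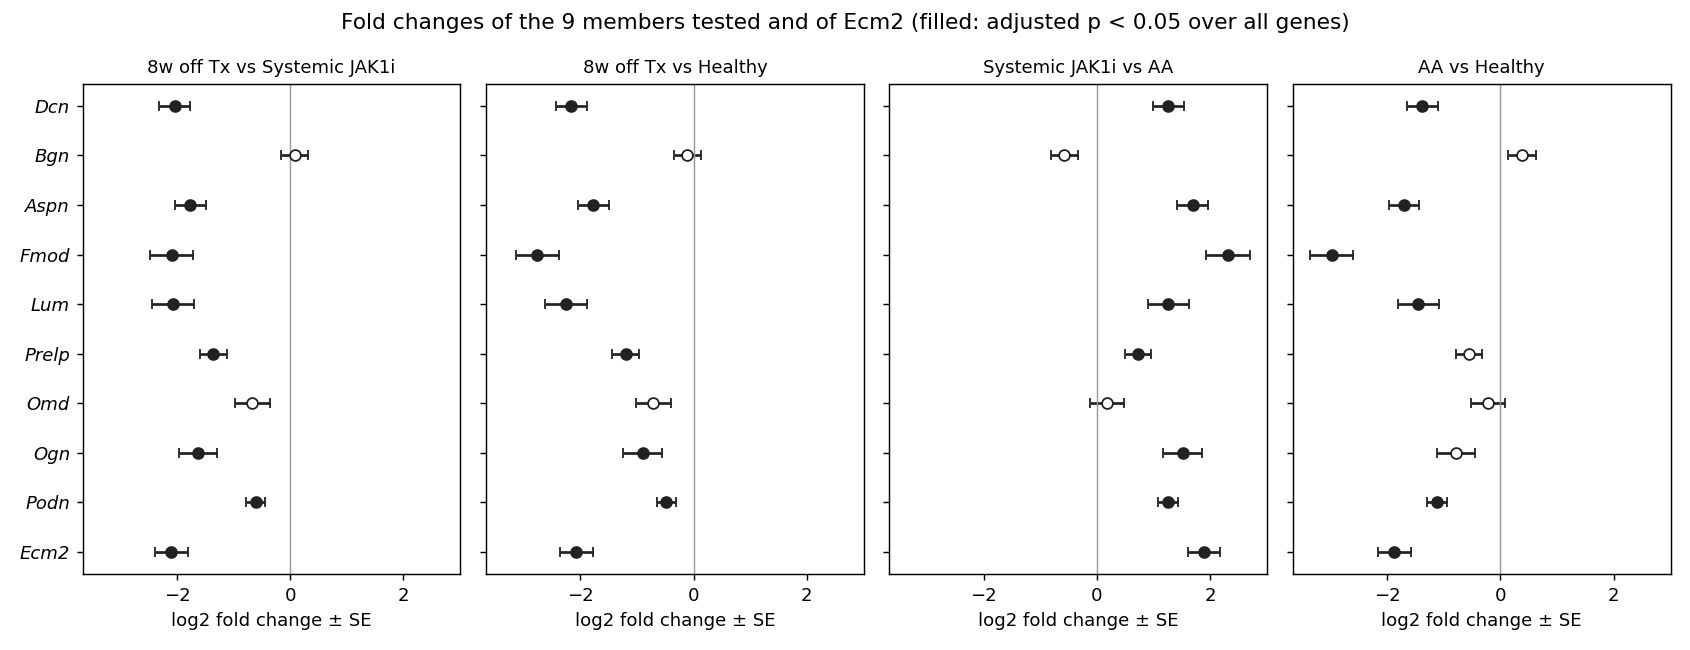
log2 fold change ± SE of the 9 members tested and of Ecm2 in 4 comparisons (columns), with filled points for genes called at an adjusted p under 0.05 over all genes. Fmod has the lowest value in the AA vs Healthy column (-2.98), and Bgn and Omd are open points in all 4 columns.

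The second comparison asked what 4 weeks of systemic JAK1 inhibition did to AA skin. Of the 9 members tested, 7 were called higher in Systemic JAK1i than in AA skin and 0 lower, against 22.9% of all genes called higher and 24.8% called lower, and nothing is read from the count. The median log2 fold change was 1.26 over the members and -0.01 over all genes. For 5 of the 9 (Dcn, Aspn, Fmod, Ogn, Podn) every Systemic JAK1i library lay above every AA library, as for 13.2% of all genes. This comparison and the first share the AA libraries.

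Fmod had 7.5, 9.79 and 16.1 CPM in Systemic JAK1i skin, against 0.793, 1.33 and 4.41 CPM in AA skin (log2 fold change 2.31 ± 0.39). Aspn had 45.7, 59.7 and 73.2 CPM in Systemic JAK1i and at most 35.0 CPM in AA skin (1.69 ± 0.27). For Dcn the values were 447, 594 and 881 CPM in Systemic JAK1i skin, and the lowest of them stood just above the highest AA library at 446 CPM (1.26 ± 0.27). Ogn differed more here than between AA and Healthy skin. It had 65.5, 95.3 and 135 CPM in Systemic JAK1i and 21.2, 28.4 and 56.5 CPM in AA skin (1.51 ± 0.34). Podn had 25.2, 33.0 and 36.1 CPM in Systemic JAK1i skin, against 8.22, 14.3 and 19 CPM in AA skin (1.25 ± 0.18). Lum (1.26 ± 0.36) and Prelp (0.73 ± 0.23) were called higher with overlapping libraries. Lum overlapped only through AA library C, without which its log2 fold change was 1.75. Bgn was again the exception, with 71.3, 103 and 147 CPM in Systemic JAK1i and 66.6, 151 and 237 CPM in AA skin (-0.58, 95% interval -1.07 to -0.08, not called). It was called lower in 4 of 24 alternatives: by DESeq2 (-0.58), by limma-voom with quality weights (-0.57), without AA library F (-0.73) and without Systemic JAK1i library A (-0.69). Omd differed by 0.18 (-0.44 to 0.79).

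Systemic JAK1i skin was also set against Healthy skin. None of the 9 members was called different, against 1.05% of all genes in either direction. The estimates for Dcn (-0.12, 95% interval -0.68 to 0.43), Aspn (-0.01, -0.55 to 0.52), Lum (-0.19, -0.93 to 0.54) and Podn (0.13, -0.22 to 0.48) lay near 0. The intervals of 2 members left out 0: Fmod (-0.67, -1.32 to -0.02), which had 7.5 to 16.1 CPM in Systemic JAK1i and 8.43 to 21.6 CPM in Healthy skin, and Ogn (0.72, 0.04 to 1.41), which had 65.5 to 135 CPM in Systemic JAK1i and 13.2 to 124 CPM in Healthy skin. With limma-voom and quality weights both of these were called. The intervals given for Dcn, Aspn, Lum, Fmod and Ogn span more than 1 unit on the log2 scale, so the groups are not shown to be alike.

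The third set of comparisons asked what remained 8 weeks after the compound was stopped. Fmod, Aspn, Lum, Dcn and Podn, the members called lower in AA skin, were called lower again, and Prelp and Ogn were called lower as well. Against Systemic JAK1i skin, 7 of the 9 were called lower and 0 higher in 8w off Tx skin (16.6% of all genes were called lower and 19.4% higher), and the median log2 difference was -1.63 over the members and 0 over all genes. For Dcn, Aspn, Fmod, Lum, Prelp and Ogn no 8w off Tx library reached the lowest Systemic JAK1i library, a separation seen for 9.19% of all genes. Against Healthy skin, 7 of the 9 were called lower and 0 higher (15.7% of all genes were called lower and 16.9% higher), and 4 (Dcn, Aspn, Fmod, Prelp) were separated (4.67% of all genes). Nothing is read from these counts.

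Dcn had 115, 148 and 192 CPM in 8w off Tx skin, the narrowest spread of the 4 groups, against 447 to 881 CPM in Systemic JAK1i skin (log2 fold change -2.04 ± 0.27) and 215 to 919 CPM in Healthy skin (-2.16 ± 0.27). Lum had 19.8, 30.2 and 45.2 CPM in 8w off Tx skin and 88.0 to 187 CPM in Systemic JAK1i skin (-2.07 ± 0.37), and was 4.79-fold lower than in Healthy skin (-2.26 ± 0.37). Fmod had 0.386, 2.22 and 4.14 CPM in 8w off Tx skin and 7.5 to 16.1 CPM in Systemic JAK1i skin (-2.09 ± 0.38), and against Healthy skin differed by -2.76 ± 0.38. None of these values overlapped those of Systemic JAK1i skin. Aspn had 12.6, 16.4 and 26.5 CPM in 8w off Tx skin (-1.76 ± 0.27 against Systemic JAK1i, -1.77 ± 0.27 against Healthy). Prelp, which the main fit did not call between AA and Healthy skin, had 14.9, 24.3 and 25.7 CPM in 8w off Tx skin. This stood against 43.8 to 62.1 CPM in Systemic JAK1i skin (-1.36 ± 0.24) and 27.1 to 61.0 CPM in Healthy skin (-1.20 ± 0.24). Ogn had 27.7, 29.8 and 36.5 CPM in 8w off Tx skin and 65.5 to 135 CPM in Systemic JAK1i skin (-1.63 ± 0.34). Its difference from Healthy skin (-0.90 ± 0.34) and that of Podn (-0.48 ± 0.17) were just past the threshold and lost the call in 15 and 11 of 26 alternatives, among them without 8w off Tx libraries A and E (-1.01 and -0.48) and without Healthy libraries A and E (-0.92 and -0.52). Without the first pair 6 of 10 members tested were called lower against Healthy, Kera having entered the test, and without the second pair 5 of 9.

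Among the 7 members called, Podn had the smallest difference between 8w off Tx and Systemic JAK1i skin. It had 16.7, 18.9 and 31.3 CPM in 8w off Tx skin and 25.2 to 36.1 CPM in Systemic JAK1i skin (-0.61 ± 0.17). The highest 8w off Tx value was library D, with the next at 22.1 CPM. Bgn had 71.9, 116 and 161 CPM in 8w off Tx skin, a difference of 0.08 ± 0.24 from Systemic JAK1i and of -0.11 ± 0.24 from Healthy skin. Omd had 1.99, 2.93 and 3.67 CPM in 8w off Tx skin (-0.67 ± 0.31 against Systemic JAK1i, -0.71 ± 0.31 against Healthy, not called in either). Without Healthy library B it was called lower against Healthy skin (-0.84), which made 8 members in place of 7. Kera had 8 counts in all 6 libraries, against 68 in Systemic JAK1i skin, at 0 to 0.559 CPM in 8w off Tx and 0.954 to 2.55 CPM in Systemic JAK1i skin. With 0 counts in 8w off Tx libraries A and F, up to 0.973 and 0.579 CPM are allowed there, so at this depth library A cannot be placed below every Systemic JAK1i library.

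Between 8w off Tx and AA skin no member was called, against 1.37% of all genes. The largest differences were Lum (-0.81, 95% interval -1.58 to -0.04), Dcn (-0.78, -1.34 to -0.22), Prelp (-0.64, -1.13 to -0.14) and Podn (0.64, 0.26 to 1.01). Their intervals left out 0, so the groups are not shown to be alike. Podn was called higher with DESeq2 and without AA library D, and Prelp lower without AA library F.

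**Figure D3:**
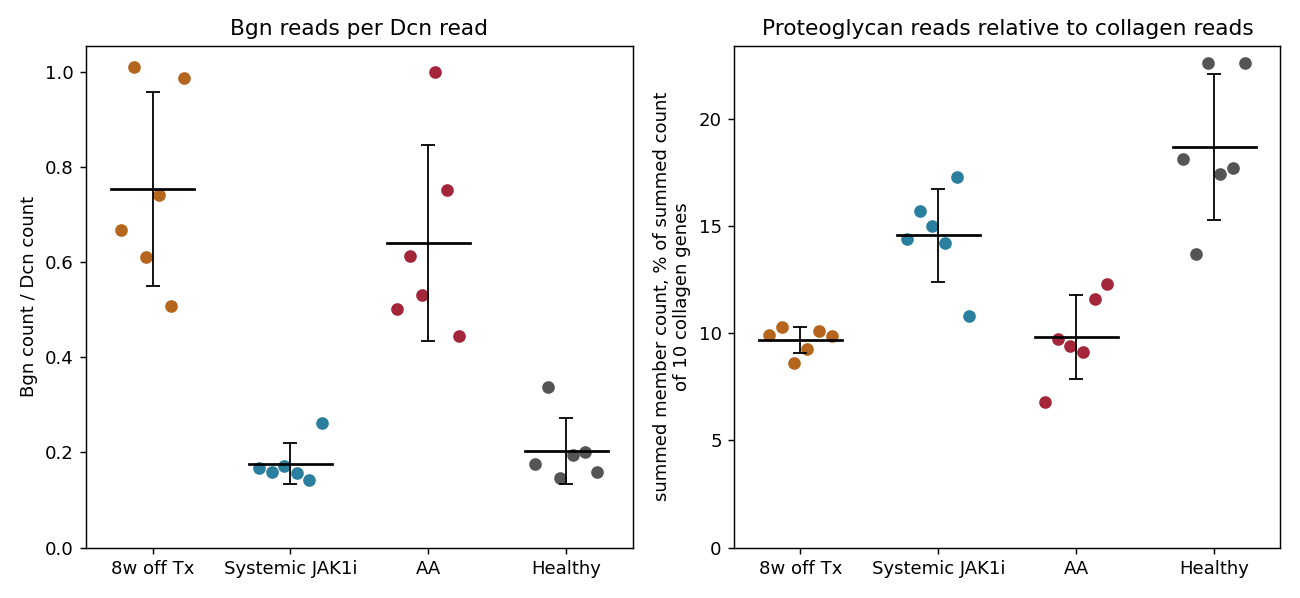
Left, Bgn count per Dcn count; right, summed count of the 10 members as a percentage of the summed count of 10 collagen genes, in every library (points) with group mean and SD (n = 6 per group). In the left panel 8w off Tx and AA libraries lie between 0.444 and 1.01 and Systemic JAK1i and Healthy libraries between 0.143 and 0.338.

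Ratios within a library do not depend on normalization. They were chosen after the levels were seen and are descriptions. Bgn and Dcn encode related proteins of class I. There were 0.507, 0.704 and 1.01 Bgn counts per Dcn count in 8w off Tx skin (lowest, median, highest), 0.143, 0.163 and 0.262 in Systemic JAK1i skin, 0.444, 0.572 and 1.0 in AA skin and 0.147, 0.185 and 0.338 in Healthy skin. The AA and 8w off Tx ranges overlapped each other but neither of the other groups, and Healthy library B gave the highest Healthy value. The 10 members summed to 8.63, 9.90 and 10.3% of the 10 collagen genes (types I, III, V, VI, XII and XIV) in 8w off Tx skin, to 10.8, 14.7 and 17.3% in Systemic JAK1i skin, to 6.78, 9.56 and 12.3% in AA skin and to 13.7, 17.9 and 22.6% in Healthy skin. AA and Healthy libraries did not overlap in this share, library B included.

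**Figure D4:**
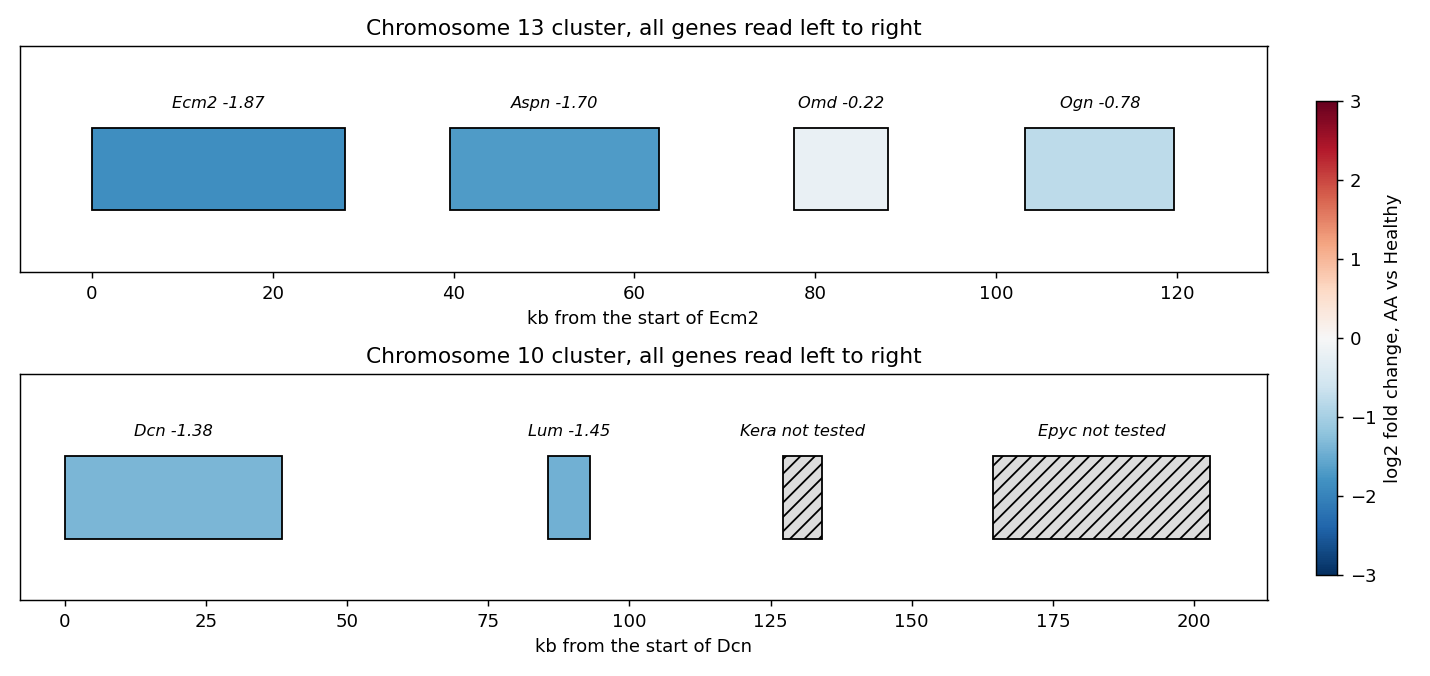
Genes of the chromosome 13 and chromosome 10 clusters drawn to scale, in kb from the start of the first gene, coloured by the log2 fold change of AA vs Healthy skin. Ecm2 (-1.87) and Aspn (-1.70) lie side by side with like values, while Omd (-0.22) and Ogn (-0.78) in the same cluster differ, and Kera and Epyc were not tested.

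Among 7 relatives outside the list, Ecm2 behaved like its neighbour Aspn. Ecm2 encodes an extracellular matrix protein with leucine-rich repeats. It had 10.4, 12.4 and 32.8 CPM in AA skin and 16.7, 63.8 and 83.9 CPM in Healthy skin (log2 fold change -1.87 ± 0.29, edgeR adjusted p = 3.7e-05). It rose in Systemic JAK1i skin, with 49.6, 62.3 and 73.1 CPM, over AA skin (1.89 ± 0.29, adjusted p = 2.3e-05), with no overlap, and was low in 8w off Tx skin, with 11, 13.6 and 22 CPM (-2.10 ± 0.29 against Systemic JAK1i, adjusted p = 1.9e-05; -2.07 ± 0.29 against Healthy, adjusted p = 3.0e-05). Optc (opticin), Chad (chondroadherin), Tsku (tsukushi) and Podnl1 did not pass the test between AA and Healthy skin, with log2 fold changes of -0.27 to 0.38. Tsku fell in Systemic JAK1i compared with AA skin (-0.52 ± 0.15, adjusted p = 0.0076), a sign that held on the CPM scale and turned on uncentred TPM. Epyc had 0 counts in all 6 8w off Tx libraries, which allows a mean of up to 0.102 CPM at 3 counts over the group, and at most 0.514 CPM in any library, and it and Nyx (nyctalopin) were not tested. In the chromosome 10 cluster the log2 fold changes between AA and Healthy skin were -1.38 for Dcn and -1.45 for Lum.

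Counts of called genes in the lists that follow are to be read beside the share of all genes called, which was 20.9% higher and 19.3% lower in AA against Healthy skin (40.2% in all), 22.9% higher and 24.8% lower in Systemic JAK1i against AA skin (47.7% in all), and 19.4% higher and 16.6% lower in 8w off Tx against Systemic JAK1i skin (35.9% in all). The lists below and the relatives above were also chosen with earlier results of these data known. Their counts and adjusted p-values are descriptions, and no enrichment was tested. Among the collagens that SLRPs bind, of 10 genes, 1 was higher and 0 lower in AA than in Healthy skin, at a median log2 difference of 0.08. The 1 gene was Col14a1 (0.96 ± 0.36, adjusted p = 0.040), which encodes a collagen of fibril surfaces and lost its call without any 1 of 8 of the 12 libraries. Healthy library B was 1 of these (0.83), and the call was also lost without Healthy libraries A and E (0.66). In Systemic JAK1i against AA skin 0 rose and 1, Col12a1, fell (-0.76 ± 0.26, adjusted p = 0.019), and its call was lost without AA library C or E. In 8w off Tx skin collagens were low as well, with 7 of 10 lower and 0 higher than in Systemic JAK1i skin, among them Col1a2 (-1.18 ± 0.27, adjusted p = 0.0020) and Col3a1 (-1.18 ± 0.28, adjusted p = 0.0025), chains of the main fibrillar collagens of skin. Against Healthy skin 2 of 10 were lower and 0 higher in 8w off Tx skin, near the 15.7% of all genes called lower there (16.9% higher). They were Col3a1 (-0.81 ± 0.28, adjusted p = 0.032) and Col1a2 (-0.74 ± 0.27, adjusted p = 0.043), both of which lost the call in several leave-outs. Without Healthy libraries A and E they had -0.73 and -0.55, in that order. Without 8w off Tx libraries A and E the values were -0.72 and -0.62.

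Of 18 genes of collagen fibril assembly and crosslinking, 7 were lower and 1 higher in AA than in Healthy skin (median -0.35), 7 higher and 2 lower in Systemic JAK1i than in AA skin (median 0.42), and 10 lower and 2 higher in 8w off Tx than in Systemic JAK1i skin (median -0.70). Tnxb, which encodes the fibril-spacing protein tenascin-X, fell in AA skin (-1.27 ± 0.15, adjusted p = 1.8e-06) and rose in Systemic JAK1i skin over AA skin (1.1 ± 0.15, adjusted p = 6.0e-06). Pcolce2, an enhancer of procollagen processing, fell in AA skin (-1.97 ± 0.28, adjusted p = 1.4e-05) and was higher in Systemic JAK1i skin (1.95 ± 0.28, adjusted p = 1.1e-05). Thbs2, encoding thrombospondin 2, fell in 8w off Tx compared with Systemic JAK1i skin (-1.76 ± 0.19, adjusted p = 1.6e-06), as did the procollagen protease gene Adamts2 (-1.76 ± 0.25, adjusted p = 2.1e-05).

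Of 24 enzymes that build glycosaminoglycan chains, 7 were lower, 2 higher and 15 not called in AA against Healthy skin (median -0.12), so that 37.5% were called, against 40.2% of all genes. Chst1, a sulfotransferase that sulfates keratan sulfate, fell (-1.93 ± 0.33, adjusted p = 6.8e-05) and Csgalnact1, which starts chondroitin sulfate chains, rose (1.02 ± 0.19, adjusted p = 2.0e-04). Dsel, an epimerase gene of dermatan sulfate, the chain that decorin carries in skin, fell by 0.40 on the log2 scale in AA skin (adjusted p = 2.0e-04). In Systemic JAK1i against AA skin 5 rose and 4 fell (37.5%, against 47.7% of all genes), with Chst1 at 1.85 ± 0.32 (adjusted p = 7.1e-05) and Csgalnact2 at 0.76 ± 0.12 (adjusted p = 2.9e-05). Csgalnact1 was among the 4 that fell (-0.96 ± 0.19, adjusted p = 2.5e-04). In 8w off Tx against Systemic JAK1i skin 6 were lower and 5 higher, and Dsel fell again (-0.48 ± 0.08, adjusted p = 4.9e-05). Tpst1, one of the 2 enzymes that sulfate tyrosines of fibromodulin and its relatives, was lower in AA than in Healthy skin (-0.58 ± 0.18, adjusted p = 0.012), a call that was lost without Healthy libraries A and E (-0.52), and Tpst2 did not pass.

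Of 16 proteoglycans of other families, 6 were higher and 4 lower in AA than in Healthy skin, with a median of 0.09 (62.5% called, against 40.2% of all genes). Their difference from the members was not tested. Gpc1 (1.07 ± 0.22, adjusted p = 4.6e-04) rose and Gpc6 (-1.25 ± 0.21, adjusted p = 8.5e-05) fell, both genes of cell-surface glypicans. In Systemic JAK1i against AA skin 3 rose and 6 fell (56.2% called, against 47.7% of all genes), with Gpc6 among those that rose (1.28 ± 0.21, adjusted p = 4.7e-05). Gpc1 was among the 6 that fell (-1.1 ± 0.22, adjusted p = 2.8e-04).

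Several SLRPs bind TGF-beta, and of 17 genes of that pathway 7 were lower and 4 higher in AA than in Healthy skin (median -0.45; 64.7% called, against 40.2% of all genes). Tgfb2, a ligand (-0.71 ± 0.14, adjusted p = 2.7e-04), and the co-receptor gene Tgfbr3 (-1.09 ± 0.14, adjusted p = 4.1e-06) fell, and Skil, a target that feeds back on the pathway, rose (0.99 ± 0.11, adjusted p = 8.3e-07). Systemic JAK1i skin had 7 higher and 3 lower than AA skin (58.8%, against 47.7% of all genes), with Tgfb2 at 1.20 ± 0.13 (adjusted p = 7.8e-07) and Tgfbr3 at 1.1 ± 0.14 (adjusted p = 2.6e-06). Skil was among the 3 lower (-0.75 ± 0.11, adjusted p = 1.1e-05). In 8w off Tx skin Tgfb2 fell compared with Systemic JAK1i skin (-1.13 ± 0.13, adjusted p = 3.0e-06). Of 10 proteases that cut SLRPs, 5 were higher and 1 lower in AA than in Healthy skin (median 0.71; 60% called, against 40.2% of all genes). Mmp13, which encodes a collagenase that also cleaves fibromodulin, had 18.6, 30.0 and 40.8 CPM in AA and 0.170, 0.399 and 13.7 CPM in Healthy skin (3.50 ± 0.68, adjusted p = 2.7e-04), and without Healthy library B its log2 fold change was 6.17. In Systemic JAK1i against AA skin 5 of the 10 proteases were lower and 2 higher (median -0.17, 70% called, against 47.7% of all genes). The 2 that rose were the metalloproteinase gene Mmp2 (0.76 ± 0.20, adjusted p = 0.0028) and the serine protease gene Htra1 (1.03 ± 0.17, adjusted p = 5.5e-05). In 8w off Tx compared with Systemic JAK1i skin 5 were lower and 2 higher (70% called, against 35.9% of all genes). Mmp2 (-1.13 ± 0.20, adjusted p = 1.4e-04) and Htra1 (-0.90 ± 0.17, adjusted p = 3.5e-04) fell there. Of 8 receptors that bind SLRPs only Met, a receptor of decorin, passed between AA and Healthy skin, with a fall of 0.44 on the log2 scale (adjusted p = 2.4e-05).

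**Figure D5:**
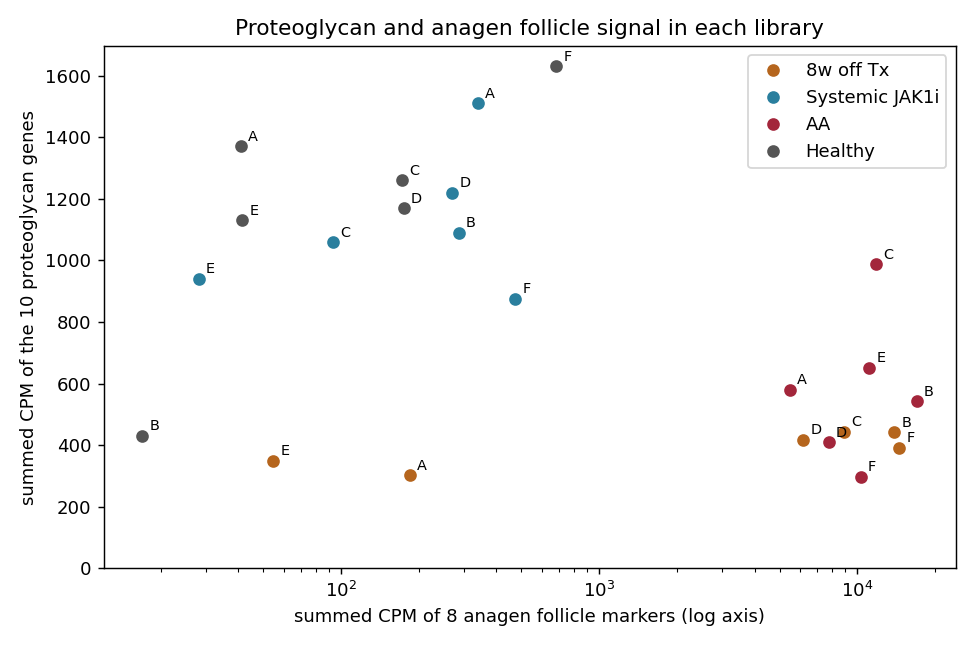
Summed CPM of the 10 members against the summed CPM of 8 anagen follicle markers (log axis) in each library, lettered by replicate. Libraries A and E of the 8w off Tx group have 302 and 350 CPM of members at 185 and 54.6 CPM of follicle markers, where the Systemic JAK1i and Healthy libraries other than Healthy B have 875 to 1630 CPM of members.

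Markers of several cell types moved with the groups. Anagen follicle markers (3 of 8 at 0 counts in some library) were higher in AA than in Healthy skin in 8 of 8 genes and summed to 5490 to 17000 CPM in AA, against 17 to 681 CPM in Healthy skin. In 8w off Tx libraries A and E the follicle sum was as low as in Healthy skin, and the member sums there (302 and 350 CPM) were below those of the other 4 (391 to 443 CPM). These 2 libraries also had the highest skeletal muscle sums of their group (36100 and 38300 CPM against 8050 to 23600 CPM), the highest keratinocyte sums (13600 and 15200 CPM against 7380 to 8990 CPM) and the lowest TMM factors (0.898 and 0.862 against 0.984 to 1.004). Without these 2 libraries the log2 fold change of Dcn was -1.93 and that of Fmod -2.0 against Systemic JAK1i skin. Adipocyte markers fell in 7 of 7 genes in AA compared with Healthy skin (sums of 211 to 810 CPM in AA, 371 to 1950 CPM in Healthy), rose in 7 of 7 in Systemic JAK1i over AA skin (1080 to 1660 CPM in Systemic JAK1i) and fell in 7 of 7 in 8w off Tx compared with Systemic JAK1i skin (360 to 493 CPM in 8w off Tx), with no marker at 0. Tendon and fascia markers were lower in 7 of 8 genes and higher in 1 in AA than in Healthy skin, summing to 80.9 to 206 CPM in AA and 229 to 418 CPM in Healthy skin, with none at 0. Fibroblast markers were lower in 5 of 12 and higher in 0 in AA than in Healthy skin (median -0.26), and lower in 9 of 12 in 8w off Tx than in Systemic JAK1i skin (median -1.07), with none at 0. They include 3 collagens of the collagen list, which made up 85.8 to 93.9% of their sum in every library. The 9 other fibroblast markers were lower in 5 and higher in 0 in AA than in Healthy skin (median -0.76), at sums of 254, 408 and 587 CPM in AA (lowest, median, highest) and 339, 651 and 869 CPM in Healthy skin. The same 9 were higher in 6 and lower in 0 in Systemic JAK1i than in AA skin (median 0.66; 573, 671 and 814 CPM in Systemic JAK1i), and lower in 6 and higher in 0 in 8w off Tx than in Systemic JAK1i skin (median -0.99; 276, 378 and 406 CPM in 8w off Tx). Skeletal muscle markers passed in 0 of 10 between AA and Healthy skin at sums of 6300 to 17200 CPM in AA and 302 to 21900 CPM in Healthy skin. In Systemic JAK1i against AA skin 2 of 10 were higher and 0 lower (Myh1, a myosin of fast fibres, by 3.24 ± 0.67, adjusted p = 8.9e-04, and Myh2 by 1.66 ± 0.61, adjusted p = 0.031). The median was 1.15, with 9 of 10 positive, at sums of 16700 to 21200 CPM in Systemic JAK1i skin. For 6 of the 10 every Systemic JAK1i library lay above every AA library, as for 13.2% of all genes. In the same comparison anagen markers were lower in 8 of 8 genes (median -5.32), endothelial markers higher in 4 of 5 and lower in 1, and T cell markers lower in 6 of 7 and higher in 0. The 4 endothelial genes that were higher also lay above AA skin without overlap. Endothelial markers were lower in 4 of 5 genes and higher in 1 in AA than in Healthy skin (sums of 135 to 271 CPM in AA and 178 to 307 CPM in Healthy), and T cell markers higher in 3 of 7 and lower in 0 (27.7 to 123 CPM in AA and 16.2 to 35.2 CPM in Healthy, with Cd8b1 at 0 counts in 6 of all libraries). Smooth muscle markers were lower in 2 of 5 in AA than in Healthy skin and macrophage markers higher in 1 and lower in 1 of 5. The part of these cell types in the levels of the members was not tested.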

How the data were processed

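Dorsal skin in 24 libraries of 4 groups was profiled by RNA-seq; groups came from the GEO labels. The authors extracted total RNA of low integrity, depleted ribosomal RNA without fragmentation (a label says poly-A RNA), aligned read pairs to mm10 with HISAT2 2.0.1 and assigned them to genes with featureCounts 1.4.4, as listed in the submitters' processing notes and the study's methods; the deposited values are unnormalized counts. The deposited TPM table came from the authors too, by a tool not given in the sources used here. Each of these tables held 6 columns that matched no sample and were not used. Of 39017 Ensembl IDs, 37607 took a symbol from GENCODE M21.

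Counts were filtered with filterByExpr (minimum count 10), leaving 16248 genes, normalized by TMM and tested with edgeR 4.0.16 (quasi-likelihood, 1 fit of all 24 libraries, Benjamini-Hochberg, call at adjusted p under 0.05) in R 4.3.3. SEs and 95% intervals are from the same fit, and CPM uses the TMM library sizes. The script was tested on simulated data. Alternatives were RLE and upper quartile scaling, other filters, the replicate letter as a block, the 2 groups alone, DESeq2 1.42.0, limma 3.58.1 (voom with quality weights; log2 TPM with pseudocounts of 0.1 and 1) and leaving out each library. TPM was compared between groups only there, since its scale shifts with composition.

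The members and lists were chosen with earlier results of these data known. All 10 members are named, also every related SLRP gene with a count, and per other list and comparison up to 3 genes with the smallest adjusted p and up to 2 with the highest mean TPM; where a list had a single call, that gene is named. A gene that this rule would name is not reported here. Libraries of 1 group differed by more than counting noise (chi-square per degree of freedom 3.04 to 54.6 over 60 pairs). Whether libraries of a group came from separate mice is not stated for every group; p-values measure the spread between these samples. Low counts limit Kera, Fmod and Omd, and floors of 3 counts cover counting error only.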

Additional observations from a re-analysis of the deposited data

Results flagged for a closer look

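In 4 of 40 member and group combinations 1 of the 6 libraries lay far from the rest by Dixon's test at the 95% level, which chance alone gives in about 1 of 20. Lum had 139 CPM in AA library C, where the next was 51.8 CPM. Kera had 2.45 CPM in the same library, with 10 counts, where the next was 0.453 CPM. Prelp had 43.8 CPM in Systemic JAK1i library E, below the next at 55.6 CPM. Podn had 31.3 CPM in 8w off Tx library D, above the next at 22.1 CPM.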

How the results depend on the processing

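Over 1349 values of a member's log2 fold change under an alternative, 1288 kept their side of the threshold, 27 lost the call and 31 gained one. Another 3 reversed in sign with a call in the main fit or the alternative. Direction was not compared where neither fit made a call, so the 1288 include changes of sign. Bgn in Systemic JAK1i vs AA, for example, ran from -0.73 to 0.2. The number of members called stayed within 5 to 7 for AA vs Healthy and 7 to 8 for Systemic JAK1i vs AA in all alternatives run, and was 5 to 9 for 8w off Tx vs Healthy and 6 to 10 for 8w off Tx vs Systemic JAK1i. For Systemic JAK1i vs Healthy it was 0, with 2 by limma-voom with quality weights and 0 to 1 when a library was left out. For 8w off Tx vs AA it was 0, with 1 by DESeq2, 1 by limma on log2 TPM centred on each library's median and 0 to 1 when a library was left out. Between libraries of the same replicate letter, deviations from the group mean correlated at -0.24 to 0.41. Pairs of different letters were not compared, so whether the letters pair the samples was not settled. With the replicate block, 5 members were called for AA vs Healthy, 7 for Systemic JAK1i vs AA, 6 for 8w off Tx vs Healthy, 7 for 8w off Tx vs Systemic JAK1i and 0 for the other comparisons. Leaving out Healthy libraries A and E or 8w off Tx libraries A and E was chosen after seeing the data.

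Uncentred TPM (pseudocount 0.1) moved the median of all genes by -0.29 for AA vs Healthy, 0.65 for Systemic JAK1i vs AA, 0.34 for Systemic JAK1i vs Healthy, -0.80 for 8w off Tx vs Healthy, -0.51 for 8w off Tx vs AA and -1.16 for 8w off Tx vs Systemic JAK1i. The share of calls that were higher was then 24.4, 93.4, 95.8, 2.82, 0.838 and 1.64% in that order, against 52, 47.9, 48.8, 51.8, 53.2 and 53.8% in the count fit. Bgn in 8w off Tx vs Systemic JAK1i was -1.23 (pseudocount 0.1, with or without the filter) and -1.16 (pseudocount 1) there, close to that shift, and Tsku in Systemic JAK1i vs AA was 0.16 and 0.09. Over all genes the share called ran from 7.72 to 44.9% for AA vs Healthy, 26.9 to 59.3% for Systemic JAK1i vs AA, 0.0724 to 12.2% for Systemic JAK1i vs Healthy, 16.7 to 71.8% for 8w off Tx vs Healthy, 0.119 to 6.61% for 8w off Tx vs AA and 19.2 to 87.3% for 8w off Tx vs Systemic JAK1i. Depth limits Kera, Epyc and Nyx.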
